A study of Mus musculus with 267 samples.

Results

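The paired immunoglobulin-like type 2 receptor locus on mouse chromosome 5 was followed through every chromatin immunoprecipitation sequencing (ChIP-seq) target measured in bone marrow-derived macrophages (BMDMs) at rest and under interleukin-4 (IL-4). It holds 3 genes, all on the minus strand in mm10 with the GENCODE vM21 annotation: Pilra (ENSMUSG00000046245.13, chr5:137821952-137836281, 14330 bp), Pilrb1 (ENSMUSG00000066684.10, chr5:137852147-137858106, 5960 bp) and Pilrb2 (ENSMUSG00000066682.11, chr5:137865827-137871815, 5989 bp). Members were the measured regions and the transcription factor peaks whose centre lay within 25 kb of the start of one of these genes. That gave 12 of 67742 regions in the C57 table, 15 of 54022 in BALB, 15 of 68932 in NOD, 10 of 60175 in PWK, 8 of 54755 in SPRET and 13 of 77955 in the C57 time course. It also gave 3 of 30675 EGR2 sites, and 457 peaks at 39 sites over 54 peak lists. The locus was selected on its measured H3K27 acetylation in C57, which was far lower at the Pilra start after 24 hours of IL-4 than at rest, so the 24-hour values of C57 are a description with no test. The regions nearest to the 25 kb limit in C57 were 1 inside it at 18.6 kb past the Pilra start, with H3K27ac of 53.6 and 34.94 at rest and 15.28 and 17.72 at 24 hours, and 1 outside it at 39.5 kb, with 2.71 and 3.57 and then 4.24 and 11.16.

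PILRA is an inhibitory receptor of myeloid cells whose cytoplasmic tail carries immunoreceptor tyrosine-based inhibition motifs that recruit the phosphatases SHP-1 and SHP-2. PILRB shares its extracellular fold but has a short tail, and signals through the adaptor DAP12 to the kinase SYK. Both bind sialylated, O-glycosylated proteins on other cells. In the mouse the activating gene has more than 1 copy. H3K27ac marks active promoters and enhancers, H3K4me2 marks both, H3K4me3 marks active promoters, and RNA polymerase II (Pol II) reports the enzyme on DNA rather than the amount of mRNA.

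BMDMs were grown with M-CSF from female mice of 5 inbred strains, BALB/cJ (BALB), C57BL/6J (C57), SPRET/EiJ (SPRET), NOD/ShiLtJ (NOD) and PWK/PhJ (PWK), and were left untreated (basal) or given 20 ng/mL IL-4 for 24 hours, with additional times of 1 and 6 hours in C57. Each strain had 2 H3K27ac, 2 H3K4me2 and 2 H3K4me3 libraries per condition and 2 to 4 Pol II libraries. Macrophages of Egr2 fl/fl mice and of LyzM-Cre Egr2 fl/fl mice, in which Cre acts in myeloid cells, were also profiled, but none of the 4677 sites of their tables lay in the locus, and the nearest was 756247 bp away. Values are tags within 1 kb regions centred on open chromatin, scaled to 10000000 tags per library (normalized tags). Libraries of the strain tables held 4691644 to 21973750 tags. A region was called where limma's moderated test on log2(normalized tags + 1), run over all regions of a strain and mark, gave a Benjamini-Hochberg adjusted p below 0.05, and log2 folds are on that scale. A region was counted as at least 2.5-fold lower on the means plus 1 tag, where either mean reached 16 tags (8 for Pol II). All 8 macrophage marker genes had an H3K27ac region at their start in C57, BALB, NOD and PWK, and 7 had one in SPRET, with summed basal levels of 2820 to 4778 normalized tags, while no T cell marker had one in any strain. A neutrophil marker, S100a8, had one in all 5, with mean H3K27ac of 37.4 in C57, 172 in BALB, 239 in NOD, 164 in PWK and 114 in SPRET at rest and 40.1, 90.8, 131, 132 and 176 at 24 hours, and S100a9, Ly6g and Mpo had none. At most 1 of 4 B cell and 1 of 4 fibroblast markers had a region, with means up to 2.05 and 2.7 at rest. The labels number the libraries without naming mice, so p-values measure the spread between these libraries, which may be technical.

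The starts of the 3 genes are near-copies of each other, and this bears on every value given for them. The stretch just before each start is shown to make that visible. It was read on the minus strand from GRCm38.p6 at chr5:137836282-137836474 for Pilra, chr5:137858107-137858299 for Pilrb1 and chr5:137871816-137872008 for Pilrb2, and capitals mark the letters TTGCNNAA of the C/EBP family, searched on both strands.
Pilra: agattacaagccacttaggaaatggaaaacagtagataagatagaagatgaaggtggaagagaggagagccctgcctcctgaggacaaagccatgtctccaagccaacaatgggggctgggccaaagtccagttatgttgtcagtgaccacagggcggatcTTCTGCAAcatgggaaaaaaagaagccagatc
Pilrb1: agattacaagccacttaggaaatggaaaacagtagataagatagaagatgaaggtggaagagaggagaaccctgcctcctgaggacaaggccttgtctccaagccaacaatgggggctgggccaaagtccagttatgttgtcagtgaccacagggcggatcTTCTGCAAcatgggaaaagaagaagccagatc
Pilrb2: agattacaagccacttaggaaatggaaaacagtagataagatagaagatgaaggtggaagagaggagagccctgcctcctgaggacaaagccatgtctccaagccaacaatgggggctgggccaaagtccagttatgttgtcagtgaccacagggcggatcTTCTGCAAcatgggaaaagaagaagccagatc

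Counted from the 5′ end of the printed stretch, Pilra and Pilrb2 differed at 1 base (A180G) and were 99.5% identical. Pilra and Pilrb1 differed at 4 (G69A, A89G, A93T and A180G) and were 97.9% identical. The C/EBP letters stood at position 162 in all 3, on the other strand; the same stretch holds them in 7.18% of 32851 RefSeq promoters. None of the 3 stretches held the letters searched for PU.1 (AGGAAGT), EGR (GTGGGNG) or STAT (TTC and GAA with 4 bases between). Over 1000 bp centred on the starts the identity was 97.4% for Pilra and Pilrb1, 97.1% for Pilra and Pilrb2 and 96.7% for Pilrb1 and Pilrb2. Of all 50-base words in those 1000 bp, 52.7% at Pilra, 54.6% at Pilrb1 and 36.2% at Pilrb2 occurred also at another of the starts, with a longest common run of 207 bp. A read inside such a run cannot be given to 1 gene. How reads with several equal placements were counted is not given in the sources used here. The regions in Pilra introns 2 to 4 had no 50-base word elsewhere on chromosome 5, and other chromosomes were not searched.

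The repeat extends to a PU.1 peak about 1 kb before each start. PU.1, encoded by Spi1, is the pioneer factor of the macrophage lineage. The 3 peaks of the C57 basal list are printed from the minus strand of GRCm38.p6, at chr5:137837255-137837485, chr5:137859052-137859275 and chr5:137872817-137873023, with the PU.1 letters AGGAAGT in capitals as they read on the opposite strand.
Pilra upstream: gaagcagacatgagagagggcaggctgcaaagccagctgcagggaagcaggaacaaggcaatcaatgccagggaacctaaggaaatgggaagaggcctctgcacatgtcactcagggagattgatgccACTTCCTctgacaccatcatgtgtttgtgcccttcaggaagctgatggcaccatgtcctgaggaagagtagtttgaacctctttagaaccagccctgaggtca
Pilrb1 upstream: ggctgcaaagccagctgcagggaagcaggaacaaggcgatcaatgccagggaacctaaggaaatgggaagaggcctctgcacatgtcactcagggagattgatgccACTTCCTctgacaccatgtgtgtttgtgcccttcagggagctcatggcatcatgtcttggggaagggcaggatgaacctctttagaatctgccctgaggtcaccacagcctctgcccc
Pilrb2 upstream: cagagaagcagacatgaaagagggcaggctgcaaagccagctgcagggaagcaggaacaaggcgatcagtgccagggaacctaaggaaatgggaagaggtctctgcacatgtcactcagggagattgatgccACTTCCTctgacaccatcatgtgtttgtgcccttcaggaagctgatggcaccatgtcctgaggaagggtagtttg

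Each of the 3 held those letters once, against 38.8% of the central 200 bp of 5113 PU.1 peaks on chromosome 5 in the same list. In the 1000 bp around these peaks Pilra and Pilrb2 were 94.2% identical, Pilra and Pilrb1 89.7% and Pilrb1 and Pilrb2 86.8%.

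At the start of Pilra, the inhibitory receptor, H3K27ac was lower at 24 hours in all 4 strains with a region there. In C57 (chr5:137835682-137836682) the basal libraries held 54.27 and 48.49 normalized tags and the 24-hour libraries 3.4 and 1.97. The C57 values chose the locus. In BALB the basal values were 33.8 and 43.49 and the 24-hour values 10.54 and 1.43. H3K27ac fell there by 2.89 on the log2 scale (SE 0.56, adjusted p 6.0e-05, limma). Both 24-hour libraries were below the basal ones but differed widely from each other, and without replicate 2, the lower, the log2 fold was -1.77 with adjusted p 0.27 (0.376% of all regions called lower in that fit). In NOD the basal libraries held 101.41 and 41.28 and the 24-hour libraries 7.23 and 8.44, a log2 fold of -2.90 (SE 0.61) that did not pass in limma (adjusted p 0.14) and passed in DESeq2 (-2.91, adjusted p 0.0042) and in limma without basal replicate 2 (-3.54, adjusted p 0.00023). In PWK the values were 56.65 and 24.27 at rest and 8.75 and 13.36 at 24 hours, a log2 fold of -1.69 (SE 0.60, adjusted p 0.29), or -2.28 with adjusted p 0.047 without basal replicate 2. Basal and 24-hour libraries did not overlap in any of the 4 strains. In BALB 28.8% of all regions also had every 24-hour library below every basal one, and this share is not given here for the others. The Pilra start region was listed as open chromatin at rest and not at 24 hours in C57, BALB and NOD, and at both times in PWK. In C57, BALB and NOD it was thus measured only because it was open at rest. Such a choice favours lower values at 24 hours for any mark, and the p-values given for this region do not allow for it. In such bulk samples, fewer cells carrying the mark and less of it per cell cannot be told apart. SPRET had no open region within 1 kb of any of the 3 starts and so gave no value for them.

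The activating genes followed. At the Pilrb1 start, C57 held 61.06 and 83.43 at rest and 7.64 and 11.16 at 24 hours. BALB held 59.52 and 71.49 at rest and 8.28 and 8.1 at 24 hours, a fall by 2.85 on the log2 scale (SE 0.57, adjusted p 0.00013, limma). NOD held 121.35 and 108.75 at rest and 10.85 and 10.69 at 24 hours, the largest log2 fold of the locus in that strain, -3.30 (SE 0.52), with adjusted p 0.064 in limma and 2.9e-05 in DESeq2. These libraries were close to each other within each condition and far apart between them. Pilrb2 had a region at its start only in BALB and NOD. In BALB it held 81.57 and 100.68 at rest and 12.8 and 12.39 at 24 hours, and fell by 2.75 (SE 0.59, adjusted p 0.00064, limma). In NOD it held 138.81 and 143.67 at rest and 15.91 and 19.7 at 24 hours (log2 fold -2.93, SE 0.51, adjusted p 0.084). In PWK the region nearest to the Pilrb1 start lay 977 bp upstream, with 96.14 and 39.15 at rest and 25.59 and 12.41 at 24 hours (log2 fold -1.73, SE 0.58, adjusted p 0.25). The antisense transcripts Gm36551 and Gm43495 overlap the first parts of Pilrb1 and Pilrb2, and ChIP-seq, which has no strand, cannot tell them apart from the genes.

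**Figure D1:**
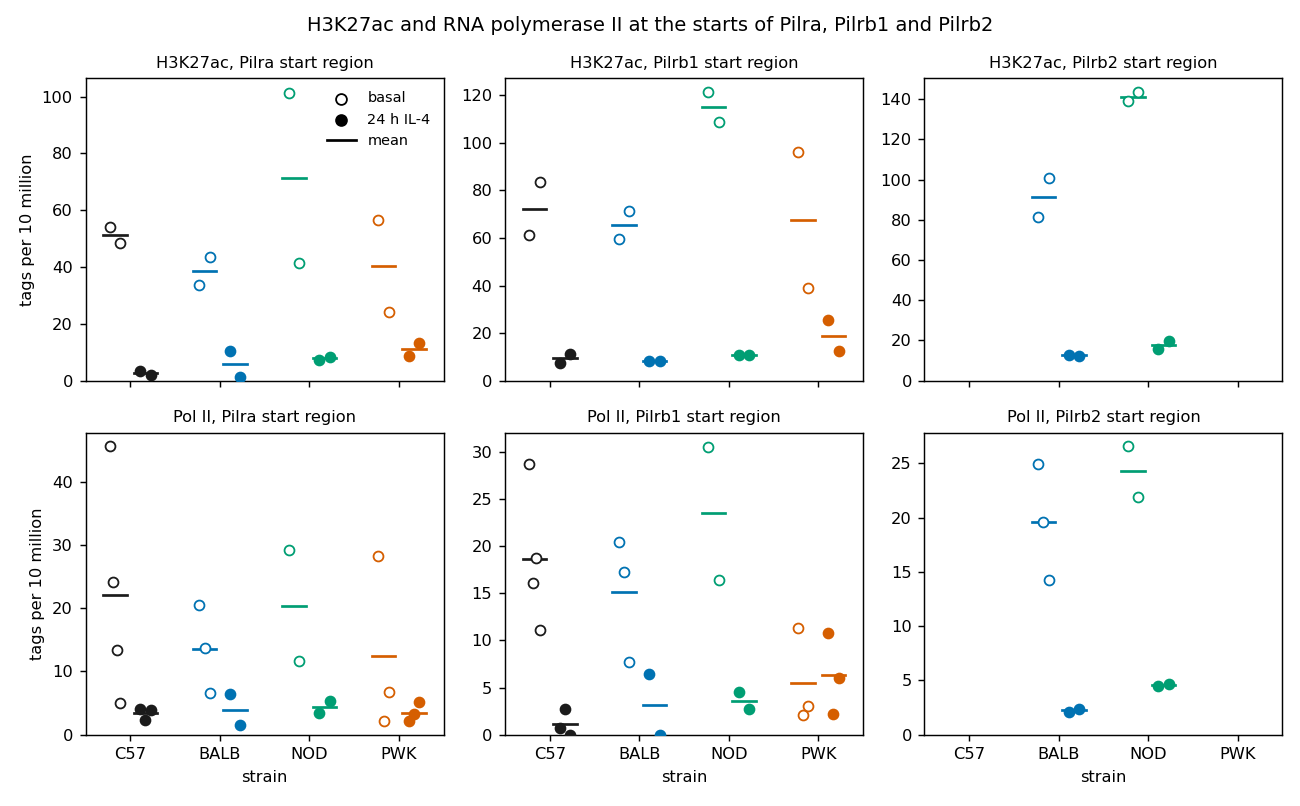
Normalized tags of H3K27ac (top) and Pol II (bottom) at the start regions of the 3 genes in each strain with a region there; open points are basal libraries, filled points 24 h IL-4 libraries, lines the means. H3K27ac in the filled points lay below the open points of the same strain everywhere, while Pol II overlapped in PWK. The PWK region shown for Pilrb1 lies 977 bp upstream of its start.

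H3K27ac was lower across the locus rather than at the starts alone. In C57 all 12 regions were lower at 24 hours, with a median log2 fold of -2.66 against -0.28 over all regions, and all 12 were at least 2.5-fold lower, as were 7.55% of all regions. In BALB all 15 regions were lower, with a median of -2.49 against -0.30, and 12 of the 15 were called lower by limma, against 0.653% of all regions. Some regions overlap, such as those at exon 3 and in intron 2 of Pilra in C57, its time course and BALB. These share reads, so the counts of regions are not counts of separate observations. All 15 were at least 2.5-fold lower (5.13% of all) and had every 24-hour library below every basal one (28.8% of all). The count of 12 went to 5 without either basal library, where limma called 0.233% and 0.189% of all regions. In NOD all 15 regions were lower, with a median of -2.34 against -0.20, and 14 were at least 2.5-fold lower (5.14% of all). None was called by limma, which called 0% of all regions lower there, although 14 had an unadjusted p below 0.05. edgeR also called none, and DESeq2 called 9, against 0.587% of all regions it tested. Leaving out basal replicate 1 gave 6 calls in limma (0.852% of all) and leaving out basal replicate 2 gave 9 (0.498% of all). In PWK the median was -1.35 against -0.18, and 4 of 10 regions were at least 2.5-fold lower (3.01% of all). limma called none of them, with 6 at an unadjusted p below 0.05 and 0.0482% of all regions called, and edgeR with library totals and DESeq2 called 1 each (0.166% and 0.162% of all). Without PWK basal replicate 2 limma called 3 (0.391% of all). In SPRET the median was -0.44 against -0.09, and none of the 8 regions was at least 2.5-fold lower (0.939% of all). None was called in SPRET by limma, edgeR or DESeq2, and none had an unadjusted p below 0.05, while limma called 0.192% of all regions lower. Among the strains not used to choose the locus, the medians ran from BALB through NOD and PWK to SPRET. The C57 median, the lowest, belongs to the contrast that chose the locus and is not ranked with them. The medians also rest on unlike sets of regions. SPRET had no region at any of the starts, and Pilrb2 had one only in BALB and NOD. The difference between strains was not tested, since each strain has its own table of regions.

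The share of all H3K27ac tags that fell in measured regions moved with IL-4 in some strains. It was 59.6% and 65.4% in the basal C57 libraries and 38.2% and 43.2% at 24 hours, 60.5% and 63% and then 42% and 54% in NOD, and 51.2% and 58.6% and then 28.7% and 57.1% in BALB. In PWK it was 53.5% and 55.2% and then 38.1% and 55%, and in SPRET 48.4% and 51% and then 39.6% and 51.8%. With libraries scaled by their median ratio over regions in place of their totals, BALB had 11 regions called (0.678% of all), and the Pilra start stood at -2.65 in BALB (adjusted p 0.028), -2.69 in NOD and -1.49 in PWK.

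**Figure D2:**
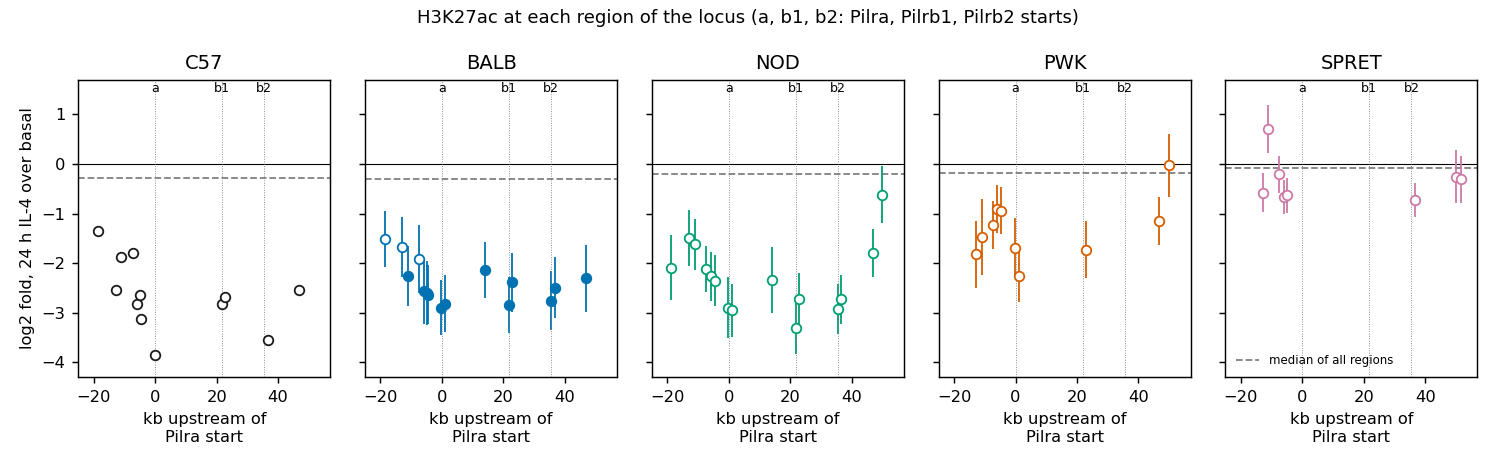
Log2 fold of H3K27ac (24 h IL-4 over basal) against the distance in kb from the Pilra start, 1 panel per strain; filled points were called by limma, bars are SE (none in C57, which was not tested), and the dashed line is the median of all regions of that strain. The points lie well below the dashed line in C57, BALB and NOD, less so in PWK, and near it in SPRET.

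The region with the highest mean basal H3K27ac differed between strains, and lay in a Pilra intron in NOD, PWK and SPRET. Intron 3 of Pilra held a pair of regions in all 5 strains. The nearer one, 5.86 kb inside the gene (C57 chr5:137829923-137830923), had the highest basal mean in NOD, and in BALB it was level with the intergenic region upstream of Pilrb2, at 155.93 against 155.64. It held 128.22 and 171.13 at rest in C57 and 14.43 and 28.22 at 24 hours. In BALB it held 146.24 and 165.62 and then 33.89 and 19.06, a fall by 2.57 (SE 0.66, adjusted p 0.0098, limma). In NOD it held 300.06 and 256.39 and then 78.84 and 41.09 (log2 fold -2.26, adjusted p 0.15). In PWK it held 176.82 and 100.22 and then 86.87 and 57.26 (log2 fold -0.91, adjusted p 0.55), and in SPRET 152.17 and 126.43 and then 88.16 and 87.23 (log2 fold -0.66, adjusted p 0.47). Basal levels in this region were thus of like size in C57, BALB, PWK and SPRET, and every 24-hour library of PWK and SPRET was above every one of C57 and BALB. So were the NOD libraries, at 78.84 and 41.09, from higher basal levels. The share of all regions with such a separation is not given here, and the difference between strains was not tested. In SPRET the farther region of intron 3, 7.39 kb inside the gene, had the highest basal mean of the locus, with 185.51 and 126.43 at rest and 172.79 and 102.31 at 24 hours, which overlapped (log2 fold -0.20, adjusted p 0.89). In C57 the same region held 107.87 and 146.89 at rest and 31.41 and 40.03 at 24 hours.

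In PWK the highest region at rest lay in intron 2, 4657 bp inside the gene, with 252.36 and 167.56 at rest and 125.93 and 90.67 at 24 hours (log2 fold -0.94, adjusted p 0.52). In C57 it was an intergenic region 11.3 kb upstream of Pilrb2 (chr5:137882585-137883585), with 129.58 and 246.72 at rest and 22.92 and 38.72 at 24 hours. BALB held 133.74 and 177.54 and then 45.93 and 20.01 there, a fall by 2.30 (SE 0.67, adjusted p 0.034, limma). The other regions that BALB called, in intron 4 of Pilra, exon 3 and intron 2, upstream of each of the 3 starts and between Pilra and Pilrb1, fell by 2.14 to 2.81 with adjusted p of 0.00027 to 0.015. Those not called in BALB were the farther intron 3 region, the region near the end of Pilra, which overlaps the end of the convergent gene Zcwpw1, and a region in an intron of Zcwpw1, with log2 folds of -1.91, -1.67 and -1.51. A region 14.3 kb upstream of Pilrb2, named after its values were seen, was in the NOD, PWK and SPRET tables alone and held 7.05 to 11.91 normalized tags in all 12 of those libraries but 1, at 5.79.

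The C57 time course gave the order in time. These H3K27ac values share their basal libraries with the contrast that chose the locus and are given with no test. At the Pilra start the levels were 8.5 and 8.61 at 1 hour, 6.93 and 5.48 at 6 hours and 3.4 and 1.97 at 24 hours, from 54.27 and 48.49 at rest. At the Pilrb1 start they were 7.73 and 8.61 at 1 hour, 9.24 and 3.04 at 6 hours and 7.64 and 11.16 at 24 hours. Both starts were thus already low at 1 hour in each of the libraries. The share of tags in measured regions moved too: in the time-course table it was 69.7% and 63.8% at rest, 44% and 20.5% at 1 hour, 51% and 50.2% at 6 hours and 46.4% and 41.2% at 24 hours, so that 1-hour replicate 2 stood apart. All 13 regions were lower at each time, with medians at 1, 6 and 24 hours of -2.45, -2.65 and -2.72 on the log2 scale against -0.63, -0.14 and -0.22 over all regions. At 1 hour 13 were at least 2.5-fold lower (20.6% of all regions), at 6 hours 12 (8.63%) and at 24 hours 13 (7.09%). Without 1-hour replicate 2 the count at 1 hour was 9 (14.9%), with a log2 fold of -2.46 at the Pilra start. With median-ratio scaling it was also 9 (4.69%), with -1.68 at the Pilra start and a median over all regions of 0.09. Both alternatives were chosen after the data were seen. At 1 hour the replicates were close to each other at both starts, while at 6 hours those of the Pilrb1 start stood apart. In the nearer intron 3 region 1 hour gave 68.8 and 14.11, and 6 hours 57.76 and 15.21, so that the replicates stood apart, the second being the lower at both times. In that region the 2 replicates at 24 hours, 14.43 and 28.22, were both far below the first replicates at 1 and 6 hours.

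**Figure D3:**
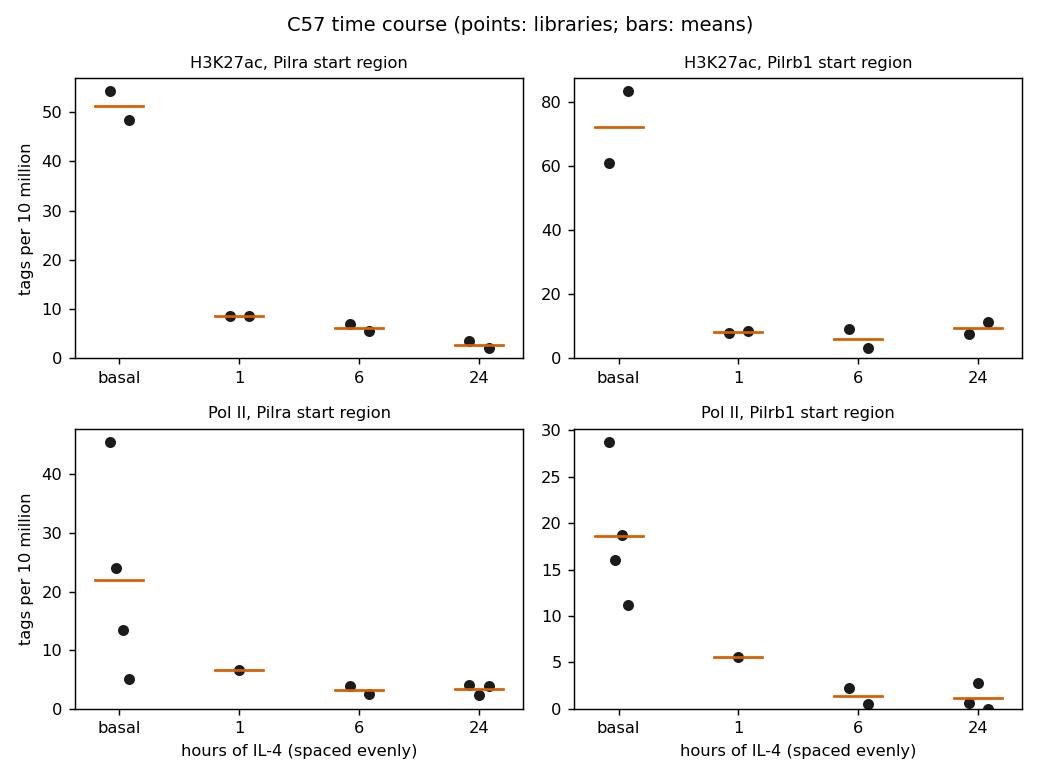
Normalized tags in C57 at rest and after 1, 6 and 24 hours of IL-4, for H3K27ac (top) and Pol II (bottom) at the Pilra (left) and Pilrb1 (right) start regions; points are libraries and bars means. H3K27ac at both starts is at most 9.24 tags in every 1-hour and 6-hour library, and Pol II had 1 library at 1 hour.

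Pol II was measured in the same regions, in separate libraries. The labels do not say whether these share cultures with the H3K27ac libraries. At the Pilra start of C57 the 4 basal libraries held 45.55, 24.07, 13.4 and 5.06 normalized tags, the 1 library at 1 hour held 6.6, the 6-hour libraries 3.83 and 2.44, and the 24-hour libraries 4, 2.28 and 3.85. The basal libraries spread widely here and the lowest of them lay below the 1-hour value. At 6 hours 3 of 13 regions were called lower by limma, against 0.137% of all regions, and 12 had an unadjusted p below 0.05, with a median log2 fold of -2.19 against -0.02. The 3 were the Pilrb1 start (-3.10, SE 0.62, adjusted p 0.030) and the regions at exon 3 and in intron 2 of Pilra (-3.07 and -3.38, adjusted p 0.030 and 0.040). The last 2, chr5:137830846-137831846 and chr5:137831228-137832228, overlap and share reads, so their calls are not separate observations. At the Pilrb1 start the basal libraries held 28.7, 16.05, 18.76 and 11.14, the 1-hour library 5.59, the 6-hour libraries 2.19 and 0.49 and the 24-hour libraries 0.67, 2.73 and 0. The Pilra start had a log2 fold of -2.13 at 6 hours (SE 0.66, adjusted p 0.18), and -3.07 with the replicate as a block, a fit that used replicates 1 and 2 alone (adjusted p 0.019). The count of 3 went to 6 without basal replicate 1 (1.02% of all) and to 0 without basal replicate 2, 3 or 4 or either 6-hour library. With the replicate as a block 5 were called (0.136% of all). The 1-hour group is a single library, assumed in the fits to vary like the other groups, so its test says little. None of the 13 regions was called there by limma, edgeR or DESeq2, with 3 at an unadjusted p below 0.05, and limma called 0.0449% of all regions lower.

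In the other strains Pol II was tested at 24 hours. All 15 regions had a negative log2 fold in BALB and in NOD, and 9 of 10 in PWK and 7 of 8 in SPRET, where basal and 24-hour libraries overlapped in every region. At the Pilrb2 start of BALB the basal libraries held 24.91, 19.57 and 14.22 and the 24-hour libraries 2.13 and 2.38, a fall by 2.63 (SE 0.67, adjusted p 0.020, limma). It was the 1 of 15 BALB regions called by limma, against 0.0444% of all, and by edgeR (0.0204% of all with library totals and 0.0333% with TMM), while DESeq2 called none. The lowest value, 2.13, stands for 1 read. Leaving out any 1 of the BALB Pol II libraries except 24-hour replicate 1 gave no call, and without that one 3 regions were called (0.0592% of all). The median log2 fold of the 15 was -1.74 against 0.32 over all regions. In NOD the start regions of Pilra held 29.2 and 11.64 and then 3.39 and 5.4, those of Pilrb1 30.49 and 16.43 and then 4.52 and 2.7, and those of Pilrb2 26.6 and 21.91 and then 4.52 and 4.72. Groups did not overlap at any of the 3, a separation whose share over all NOD regions is not given here. The NOD median was -1.88 against -0.02. limma called none of the 15, as it called 0% of all regions lower, 10 had an unadjusted p below 0.05, edgeR called none and DESeq2 1 (0.178% of all). In PWK the Pilra start held 28.22, 2.1 and 6.82 at rest and 2.16, 3.23 and 5.13 at 24 hours, which overlapped (log2 fold -1.04, SE 0.68, adjusted p 0.64). The PWK region 977 bp upstream of the Pilrb1 start held 11.29, 2.1 and 3.03 and then 10.79, 2.15 and 5.99 (log2 fold 0.25, adjusted p 0.95). limma, edgeR and DESeq2 called none of 10 in PWK, 1 had an unadjusted p below 0.05, limma called 0.281% of all regions lower, and 1 region was called with the replicate as a block (3.82% of all). In SPRET the nearer intron 3 region held 111.27, 37.31 and 34.4 at rest and 43.94, 30.39 and 40.63 at 24 hours, and the 3 tests called none of the 8, with none at an unadjusted p below 0.05 and 0.27% of all regions called lower by limma. In C57, where no test was made, the 24-hour median was -1.97 against -0.03.

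The methylation marks were weaker here. H3K4me2 at the Pilra start was 43.29 and 42.23 at rest and 17.03 and 10.98 at 24 hours in C57, and 26.36 and 37.43 and then 9.3 and 8.26 in NOD. The NOD difference, a fall by 1.73 (SE 0.44, adjusted p 0.044, limma), was the 1 of 15 NOD regions called, against 0.0218% of all. Adjusted p was 0.29 with median-ratio scaling, 0.23 in edgeR with TMM and 0.85, 1.00 and 0.28 without 24-hour replicate 1, 24-hour replicate 2 or basal replicate 2. In BALB the Pilra start held 32.93 and 30.67 and then 13.4 and 9.62 (log2 fold -1.41, adjusted p 0.67), and without 24-hour replicate 1 the fold was -1.63 with adjusted p 0.003, in a fit that called 51.9% of all regions lower. The locus medians of H3K4me2 were -1.08 in C57, -0.88 in BALB, -0.84 in NOD, -0.48 in PWK and -0.53 in SPRET, against -0.69, -0.63, -0.30, -0.18 and -0.48 over all regions, and these differences from all regions were smaller than those of H3K27ac. limma called no H3K4me2 region of the locus in BALB, PWK or SPRET, nor did edgeR or DESeq2, and 3, 0 and 2 had an unadjusted p below 0.05. Over all regions limma called 0%, 0.00332% and 0% lower. H3K4me3 was low even at the starts. At the Pilrb1 start C57 held 20.38 and 15.6 at rest and 2.44 and 1.56 at 24 hours, and NOD 14.26 and 18.95 and then 1.85 and 0 (log2 fold -3.37, SE 0.63, adjusted p 0.065). At the Pilra start C57 held 23.29 and 3.9 and then 1.83 and 3.12, NOD 13.54 and 11.93 and then 1.85 and 0.7, and BALB 8.14 and 3.14 and then 0.83 and 0. No H3K4me3 region of the locus was called by limma in the 4 strains tested, with 3 at an unadjusted p below 0.05 in BALB, 5 in NOD, 0 in PWK and 1 in SPRET. It called 0%, 0.00435%, 0.00332% and 0% of all regions lower in BALB, NOD, PWK and SPRET. DESeq2 also called none of the locus. In NOD edgeR called 2 with library totals (0.0609% of all) and 1 with TMM (0.104% of all).

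EGR2, a zinc finger factor that IL-4 induces in macrophages, was measured at 3 sites within Pilra in C57. The intron 4 site, 11.1 kb inside the gene, and the nearer intron 3 site are printed because they hold letters of an EGR, a STAT or a PU.1 motif. They were read from the minus strand of GRCm38.p6 at chr5:137825012-137825254 and chr5:137830268-137830528. Capitals mark the EGR letters GTGGGNG in the first, and the STAT letters, TTC and GAA with 4 bases between, and then the PU.1 letters AGGAAGT in the second. All letters were searched on both strands, and no matches overlap.
Intron 4 site: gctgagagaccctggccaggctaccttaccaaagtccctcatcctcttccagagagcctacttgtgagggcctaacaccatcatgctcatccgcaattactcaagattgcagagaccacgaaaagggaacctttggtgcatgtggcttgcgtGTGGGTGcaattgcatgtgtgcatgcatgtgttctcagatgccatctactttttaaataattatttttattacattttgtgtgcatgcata
Nearer intron 3 site: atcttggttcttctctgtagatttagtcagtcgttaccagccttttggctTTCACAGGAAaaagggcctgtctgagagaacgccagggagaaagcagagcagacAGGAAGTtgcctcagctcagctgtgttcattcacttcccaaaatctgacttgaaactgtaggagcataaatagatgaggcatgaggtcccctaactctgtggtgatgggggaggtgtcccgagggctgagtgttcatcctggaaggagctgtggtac

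The EGR letters occurred in the central 220 bp of 51.1% of 1889 EGR2 sites on chromosome 5, the PU.1 letters in 17.6% and the STAT letters in 7.25%. The third site, chr5:137828781-137829001 in the farther part of intron 3, held none of the 4 sets of letters. EGR2 tags at the intron 4 site were 28.1 and 20.14 at rest, 13.55 and 18.32 at 1 hour, 13.97 and 41.25 at 6 hours and 64.63 and 50.88 at 24 hours. Both 24-hour libraries were above all others there. The 24-hour log2 fold, which was not tested, was 1.23 against a median of 0.66 over all sites, and 85.4% of all sites had a smaller one. At the farther intron 3 site the values were 28.57 and 36.26, then 16.26 and 20.25, then 8.73 and 17.83, and 35.01 and 31.68 at 24 hours. At the nearer one they were 21.07 and 13.43, then 13.55 and 24.11, then 19.2 and 30.56, and 30.52 and 19.2. None of the 3 was called at 1 or 6 hours by limma, which called 0% of all 30675 sites at either time, and none had an unadjusted p below 0.05. While EGR2 tags at the intron 4 site were at their highest, H3K27ac in the region around it was 5.94 and 26.25 at 24 hours against 27.82 and 86.99 at rest.

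**Figure D4:**
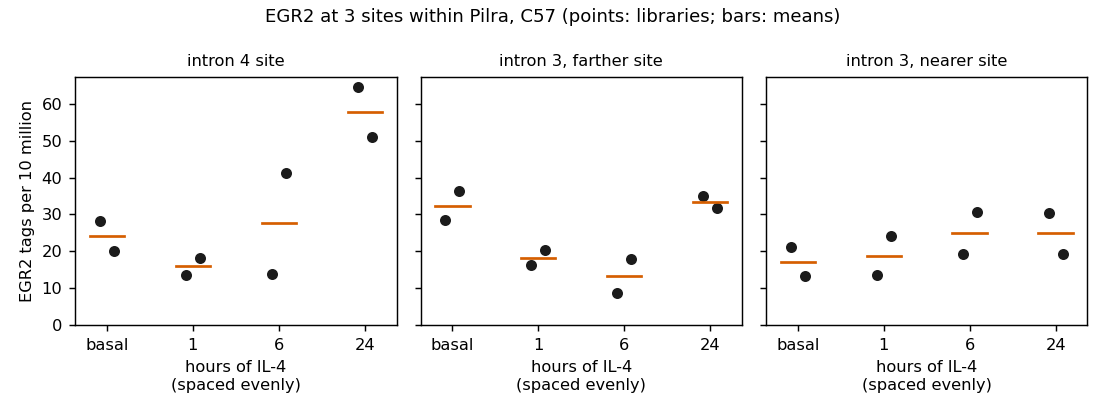
Normalized EGR2 tags at the 3 sites within Pilra in C57, at rest and after 1, 6 and 24 hours of IL-4; points are libraries and bars means. The highest values of the intron 4 site are the 24-hour libraries, at 64.63 and 50.88, while the intron 3 sites stay between 8.73 and 36.26.

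Transcription factor peaks filled the locus before and after IL-4. Each list holds the peaks found in replicates of 1 group and has no replicates of its own, so the lists are described with no test. Summed over the 5 strains, the lists grew with IL-4 for every factor but PU.1, though not in each strain. Counts at the locus are therefore given with the number per 10000 listed peaks. PU.1 had 107 peaks over the 5 basal lists, 20 to 22 in each, and 90 over the 24-hour lists, 14 to 20 in each, which is 2.38 and 2.11 per 10000. C/EBPβ, a partner of PU.1 in myeloid cells, had 37 at rest and 47 at 24 hours (3.24 and 2.51 per 10000). EGR2 had 8 and 14 (0.986 and 1.02 per 10000). STAT6, which the IL-4 receptor activates, had 37 and 37 (3.53 and 2.45 per 10000), and PPARγ, a nuclear receptor of lipid metabolism, 26 and 43 (4.01 and 2.56 per 10000). For C/EBPβ and PPARγ the locus thus held more peaks over the 5 strains but a smaller share of the lists. In SPRET it held fewer, 10 and then 7 for C/EBPβ and 5 and then 4 for PPARγ. The sums hide unlike strains. STAT6 peaks went from 12 to 9 in C57, 6 to 5 in BALB and 10 to 6 in NOD, but from 4 to 8 in PWK and 5 to 9 in SPRET. EGR2 peaks went from 3 to 2 in BALB and 5 to 1 in NOD, but from 0 to 3 in C57, 0 to 1 in PWK and 0 to 7 in SPRET. The EGR2 peak lists of C57 placed none in the locus at rest or at 1 hour, 1 at 6 hours and 3 at 24 hours, whereas the EGR2 tag table marks the intron 4 site and the farther intron 3 site as found at rest too. In C57, 13 PU.1 peaks lay within 25 kb of the Pilra start at rest, and 2.26% of all protein-coding gene starts had as many. All 3 starts carried a PU.1 peak in C57 at both times, within 14 bp of the Pilra start, 14 bp of the Pilrb1 start and 34 bp of the Pilrb2 start. At rest 43.7% of all protein-coding gene starts had a PU.1 peak within 1 kb. A peak as near as that of Pilra, Pilrb1 and Pilrb2 was found at 4.04%, 0.456% and 9.64% of them. As the 3 starts are near-copies, their peaks may not be separate observations.

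PU.1 peaks at the Pilra start were listed in 5 strains at rest and 4 at 24 hours, NOD being the one without at 24 hours. At the Pilrb1 start they were listed in 5 and then 4 strains, and at the Pilrb2 start in 4 and then 3. SPRET, with no open region at the starts in its table, had a PU.1 peak 62 bp from the Pilra start and 13 bp from the Pilrb1 start at rest. C/EBPβ peaks lay at the Pilra start in 2 strains and at the Pilrb1 start in 3 at rest and 4 at 24 hours. The sites shared by the most lists were not the starts but 4 sites within Pilra, 12.9, 11, 7.45 and 5.87 kb from its start. They carried all 5 factors and stood in 34, 41, 42 and 43 of the 54 lists. PU.1 was listed at each of these 4 sites in all 5 strains at both times. At the site 5.87 kb inside the gene C/EBPβ and STAT6 were also listed in all 5 strains at both times, and PPARγ in 4 strains at rest and 5 at 24 hours. A site 11.3 kb upstream of Pilrb2, in the region where C57 had its highest H3K27ac, was listed for C/EBPβ, STAT6 and PPARγ in 4 strains each at both times and for PU.1 in no strain at rest and 2 at 24 hours.

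**Figure D5:**
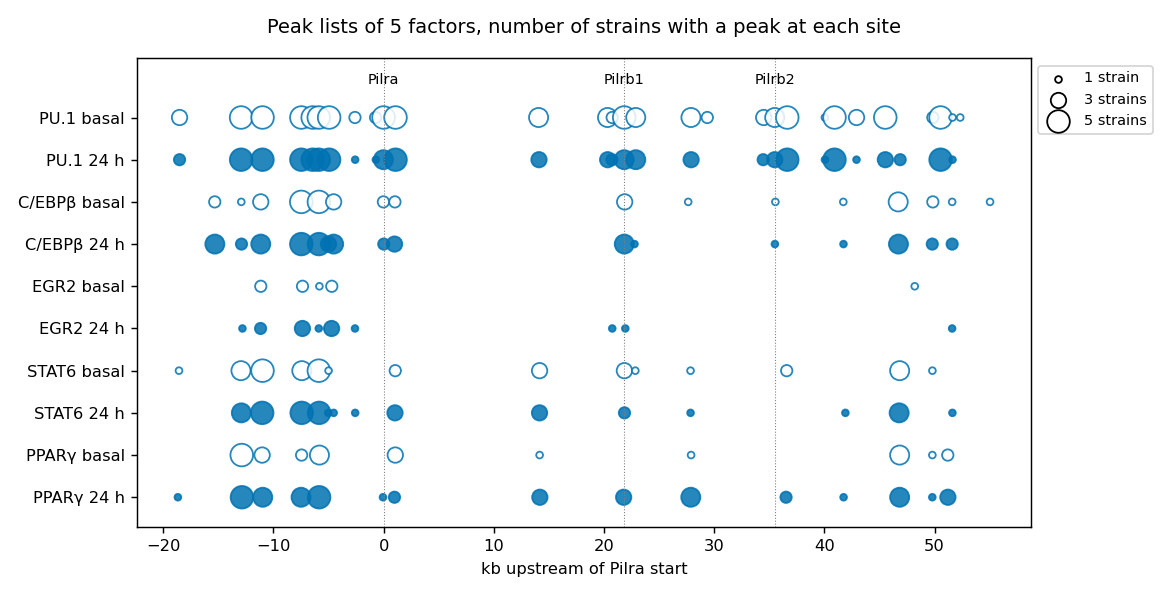
Sites with a peak of PU.1, C/EBPβ, EGR2, STAT6 or PPARγ at rest (open) and after 24 h of IL-4 (filled), by distance in kb from the Pilra start; the size of a point gives the number of strains with a peak. PU.1 is listed in all 5 strains at many sites in both conditions, and the 5 factors meet within Pilra.

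The other genes of the pathway were read at their own starts, on the H3K27ac scale and relative to all regions. The signalling list was Tyrobp, which encodes DAP12, Hcst, which encodes the related adaptor DAP10, the phosphatase genes Ptpn6, Ptpn11 and Inpp5d, and Syk, and 5 or 6 of the 6 were measured in each strain. None was called in either direction in BALB, NOD, PWK or SPRET by limma, edgeR or DESeq2, 3 in NOD and none elsewhere had an unadjusted p below 0.05, and the list medians were -1.05, -0.76, -0.61 and -0.25 against -0.30, -0.20, -0.18 and -0.09 over all regions. Tyrobp held 898 ± 133 normalized tags at rest and 462 ± 236 at 24 hours in BALB (SD, n = 2), and 734 ± 7.44 and 562 ± 82.5 in SPRET. Ptpn6, which encodes SHP-1, held 73.8 ± 16.1 and 40.8 ± 15.9 in BALB. Of the ligand genes Cd99, Npdc1, Pianp and Colec12, the first was not matched by symbol, Npdc1 had no region, and neither of the others was called or had an unadjusted p below 0.05. Npdc1, Pianp and Colec12 encode membrane proteins. Among 17 genes of other paired immunoglobulin-like receptors, 12 to 15 had a region, and limma called none for H3K27ac in the 4 strains, with medians of -0.78, -0.57, -0.57 and -0.22 and 1, 4, 2 and 2 at an unadjusted p below 0.05. DESeq2 called 3 of them lower in BALB (Siglece, Siglec1 and Cd33), against 1.24% of all regions it tested, and Siglece in NOD. edgeR called Siglece lower in BALB with TMM (0.613% of all) and Trem1 higher in SPRET with library totals (1.76% of all). For Pol II limma called Siglece lower in BALB and in PWK. The summed H3K27ac of the 8 macrophage markers went from 2820 to 4778 over the strains at rest to 2006 to 2551 at 24 hours, with medians of -0.89, -0.72, -0.60 and -0.41 in these 4 strains and 1, Fcgr1, called lower by limma in PWK, as it was by DESeq2 in BALB (log2 fold -2.11). Of 4 dendritic cell markers 1 or 2 were measured, Zbtb46 and, in C57, Flt3, with a sum of 0.83 to 13.1 at rest and 5.3 to 46 at 24 hours, while Xcr1 and Ccr7 had no region. In PWK Zbtb46 had an H3K27ac log2 fold of 3.53 (adjusted p 0.055, limma, and 0.029, edgeR with library totals). For Pol II it was called higher in PWK by limma, edgeR and DESeq2. Shares of all regions called higher in those edgeR and Pol II fits are not given here. The part of these markers in the Pilra result was not tested.

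As a check of the treatment, 8 genes known to respond to IL-4 were read in the same way, of which 5 were measured in BALB, NOD, PWK and SPRET. Cish, an inhibitor of cytokine receptor signalling that STAT factors induce, rose for H3K27ac in BALB, PWK and SPRET (log2 folds 2.46, 2.67 and 3.51, adjusted p 0.0022, 0.028 and 0.014, limma), and had a log2 fold of 2.51 in NOD (adjusted p 0.21). limma called 1.6%, 0.487%, 0.994% and 0.0566% of all regions higher in BALB, PWK, SPRET and NOD. Egr2 rose in BALB (1.92, adjusted p 0.039) and Socs1 in SPRET (2.64, adjusted p 0.0034).

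The gene starts whose H3K27ac was most like that of the Pilra start were sought over 16 basal and 24-hour libraries of C57, BALB, NOD and PWK, among 9173 gene starts with a region in all 4 tables. The 5 with the highest Pearson correlation of log2 values were Avpi1 (r = 0.94), Ifi47 (r = 0.94), Ier2 (r = 0.93), Ptpn22 (r = 0.93) and Pik3c2a (r = 0.92), against a median of 0.465 over all. Ier2 is an immediate early gene, Ptpn22 encodes a phosphatase of immune receptor signalling and Pik3c2a a phosphoinositide kinase. The libraries share their depth and their IL-4 contrast, so these values describe a like pattern and carry no test. In C57 the Avpi1 start went from a mean of 217 to 48.2 normalized tags and Ifi47, an interferon-induced GTPase gene, from 108 to 22.1.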

How the data were processed

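Chromatin was profiled by ChIP-seq in macrophages of 5 strains, in 267 samples of 138 groups. Per the study's methods, reads were mapped with Bowtie2 to each strain's own genome, positions were moved to mm10, and HOMER counted tags in regions of 500 bp to either side of reproducible open chromatin peaks. The deposited signal is tags scaled to 10000000 per library by the authors. Multiplied by the library total it gave whole reads for 100% of values (within 0.02 reads). The deposited peak lists carry the authors' score, and hold 200 bp HOMER peaks kept by IDR, 1 list per group. They were used for position, with their score only to take an upper part of each list.

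Each strain and mark was fitted with limma (3.58.1) on log2(signal + 1) over all regions, with Benjamini-Hochberg adjustment, in R 4.3.3. edgeR (4.0.16) and DESeq2 (1.42.0) on the recovered reads were alternatives, and the scripts were tested on simulated data. EGR2 tags were tested with limma alone. Other alternatives were a pseudocount of 5, a filter on low values, median-ratio scaling, a replicate block, each library left out, a fold rule of 2, and other windows for peaks. No value was filtered out of the main fits. Separate tables were not tested against each other. A further 4 Pol II columns match no sample and were not used. Total tags per library set the precision, and intervals between replicates cover 2 to 4 libraries.

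Same-numbered Pol II libraries may be paired, but the labels do not say what a number shares. In C57, PWK and SPRET the deviations of same-numbered libraries from their group means correlated in all 3 pairs (r 0.12 to 0.24, 0.20 to 0.47 and 0.22 to 0.31). In BALB r was 0.25 and 0.30, and in NOD 0.37. The main fits left pairing out, and blocked values are given where they change a call.

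Regions named are those at each start, the region highest in H3K27ac in each table, further regions called in strains other than C57, and the 5 gene starts most like that of Pilra, sought in the 4 tables with a region at its start. The members, lists and tests were chosen with earlier results of these data known.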

Additional observations from a re-analysis of the deposited data

Results flagged for a closer look

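H3K27ac in intron 4 of Pilra, 11 kb inside the gene, had non-overlapping libraries with opposite directions in some strains. The region was picked by searching the locus for this pattern, and the share of all regions showing it is not given here. The log2 fold at 24 hours of IL-4 was -2.26 in BALB, -1.87 in C57 and -1.62 in NOD, and every 24-hour library of these strains was below every basal one. In SPRET it was 0.708 (adjusted p 0.62, limma), with basal values of 17.1 and 9.88 and 24-hour values of 19.4 and 24.77 normalized tags. The difference between strains was not tested, and the SPRET levels are low. In PWK the libraries overlapped. Among the 4 basal Pol II libraries of C57, none of the 12 regions of the locus had a library set apart by Dixon's test.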

How the results depend on the processing

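Of 400 alternative values for 49 results, 325 kept their direction and their side of the threshold, and 2 turned direction, both for H3K4me3 at the Pilra start in PWK when a library was left out (range -1.40 to 0.89, with values of 0.14 and 0.89 above 0). No H3K27ac fold at a start turned direction in 88 alternatives. For H3K27ac in NOD, the regions called numbered 2 with the filter on low values, 14 with the replicate block and 9 with DESeq2, where the Pilra start stood at -2.90 (block) and -2.91 (DESeq2). In PWK 1 region was called with the filter, with edgeR on library totals and with DESeq2, and 7 with the block (Pilra start -1.69), and the fold rule of 2 gave 7 regions for H3K27ac and 4 for Pol II. For Pol II, BALB had 0 called with median-ratio scaling, the block and DESeq2, NOD 10 with the block and 1 with DESeq2, and PWK 1 with the block. At 6 hours in C57 the count was 5 with the block, 1 with edgeR TMM, 6 with DESeq2 and 1 with the filter, and the Pilra start stood at -3.07 with the block and -2.73 with DESeq2. The cause was not tested. In the blocked PWK fit of Pol II 3.82% of all regions were called lower, against 0.281% without the block. Shares of all regions are not given here for the blocked counts of H3K27ac and of NOD Pol II. Nor are they given for the counts with the filter or under the fold rule of 2. Those counts cannot be weighed against calls over all regions.

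H3K27ac and the other marks have 2 same-numbered pairs per strain, and the labels do not say what a number shares. For H3K27ac the correlations of deviations were 0.26 to 0.49, a range that overlaps that of Pol II. Pairing may thus hold there too, and the main fits left it out. With the block, limma called 15 H3K27ac regions in BALB, 14 in NOD, 7 in PWK and 0 in SPRET, against 12, 0, 0 and 0 without it. Leaving out 1 library gave 5 to 12 regions called for H3K27ac in BALB, 0 to 9 in NOD, 0 to 3 in PWK and 0 to 0 in SPRET. For Pol II it gave 0 to 3 in BALB, 0 to 0 in NOD, PWK and SPRET and in C57 at 1 hour, and 0 to 6 at 6 hours. The Pilra start ranged from -4.02 to -1.77 in BALB, from -3.54 to -2.26 in NOD and from -2.28 to -1.09 in PWK for H3K27ac, and for Pol II from -1.75 to -0.77 at 1 hour and from -2.65 to -1.67 at 6 hours. EGR2 sites called stayed at 0. Regions at least 2.5-fold lower for H3K27ac in the C57 time course numbered 9 to 13 at 1 hour, 9 to 13 at 6 hours and 11 to 13 at 24 hours.

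Within 10 kb of a start there were 52 C/EBPβ, 15 EGR2, 49 STAT6 and 36 PPARγ peaks, and within 50 kb 44 EGR2 peaks. The upper part of each list by score held 4 EGR2 and 54 STAT6 peaks. Low counts limit H3K4me3 and Pol II at the starts.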
